A study of Homo sapiens with 10 samples.

Results

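WNT ligands, their receptors and the secreted proteins that tune them were taken from the RNA-seq of ZNF274 knockout (KO) cells by gene symbol. The 44 protein-coding genes are 18 WNT ligands, 10 frizzled receptors (FZD), the 2 co-receptors LRP5 and LRP6, 4 R-spondins (RSPO), 5 secreted frizzled-related proteins (SFRP1, SFRP2, SFRP4, SFRP5 and FRZB), WIF1 and 4 Dickkopf proteins (DKK), out of 24050 genes in the count tables. Of these, 38 are listed for both cell types. SFRP5, WNT8A and WNT9B are listed for HEK293T cells alone, and WNT1, WNT2 and WNT7A for neural progenitor cells (NPCs) alone. WNT6, which the annotation also holds under this symbol rule, is listed for neither cell type and could not be analysed.

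WNT proteins are secreted lipid-modified signals. In the canonical branch, a WNT that binds a frizzled receptor together with LRP5 or LRP6 stops the destruction of beta-catenin, which then enters the nucleus and acts with TCF and LEF factors on target genes. R-spondins strengthen the signal by keeping frizzled receptors at the cell surface, Dickkopf proteins block LRP5 and LRP6, and the SFRP proteins and WIF1 bind WNT ligands outside the cell. In the developing neural tube, WNT ligands and R-spondins mark the dorsal midline and its organizing centres, and the dose of WNT signal helps to set front-to-back identity.

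ZNF274 is a KRAB zinc finger protein that binds DNA and recruits a repressor complex. Stranded mRNA libraries came from 4 groups: WT HEK293T cells (libraries S15, S16 and S17), ZNF274 KO HEK293T cells (S18, S19 and S20), WT NPCs (S3 and S5) and ZNF274 KO NPCs (S1 and S2). HEK293T is a line derived from human embryonic kidney, and the NPCs were grown from H1 human embryonic stem cells through embryoid bodies in neural induction medium. The gene was deleted by CRISPR-Cas9 with paired guides, the edited HEK293T cells were sorted as single cells, and the KO NPCs descend from edited stem cells. The series describes its libraries as biological replicates of independent clones, and the study describes its NPC expression values as averages over 2 parental lines, which the labels do not name. Which clone or differentiation each library comes from is not labelled, so the effect of the deletion and differences between clones or differentiations cannot be told apart. No treatment or time course separates the groups.

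The libraries held 21421013 to 32285876 counts on genes in HEK293T cells and 18621266 to 23035490 in NPCs. Levels are given as CPM, counts scaled to the normalized size of each library. ZNF274 stood at 14.9, 14.6 and 16.7 CPM in the WT HEK293T libraries and at 23.2 and 25.4 CPM in the WT NPC libraries, and all 5 KO libraries had 0 counts. The NPC label was checked against cell type markers. WT NPCs carried the progenitor factors SOX2 at 223 ± 5.52 CPM and PAX6 at 83.2 ± 6.67 CPM (SD, n = 2). In KO NPCs 10 of 15 neural genes were down-regulated, including SOX2 at 16.9 ± 5.93 CPM and SOX1 at 0.0697 ± 0.0288 CPM, and none were up-regulated, where 8.36% of all genes tested were down-regulated and 8.45% up-regulated. This KO level of SOX1 is under that of 3 counts per library (0.148 CPM in S1 and 0.135 CPM in S2). The fitted log2 FC of SOX1 was -9.37 without the WT library S3 and -6.58 without S5. NES, an intermediate filament of progenitors and the most abundant of the 15, was not called, at 2264 and 2996 CPM in WT and 3183 and 3087 CPM in KO libraries (adjusted p = 0.231). The other 14 summed to 1617 and 2008 CPM in WT and 256.3 and 233.3 CPM in KO libraries, and all 15 to 3881 and 5004 CPM against 3440 and 3320 CPM, with 3 of them at 0 in each KO library. Of 13 mesenchymal genes 7 were up-regulated, among them COL1A1 and COL3A1, with sums of 2715 and 1747 CPM in WT and 8424 and 6804 CPM in KO libraries. Of 8 neural crest genes 4 were up-regulated (118.2 and 73.6 CPM against 484.4 and 467.5 CPM) and of 8 epithelial genes 3 (665.1 and 412.2 CPM against 1421 and 1604 CPM). The 3 epithelial genes were the keratins KRT7, KRT8 and KRT18. KRT18 alone gave 211.6 and 117.3 CPM in WT and 703.3 and 792.5 CPM in KO libraries. Both KO libraries were above WT for 5 of the 8 epithelial genes and below for 2, against 33.3 and 33.8% of all genes tested. Of 5 smooth muscle genes, TAGLN and MYL9 were up-regulated. The sum of the 5 was 1063 and 1451 CPM in WT and 4238 and 4143 CPM in KO libraries, of which TAGLN gave 814.2 and 1069 CPM and 3502 and 3495 CPM. ACTA2, CNN1 and MYH11 were not called, with log2 FC of -0.19, 0.22 and -1.14 (adjusted p = 0.575, 0.475 and 0.386). Of the pluripotent genes 1 of 6 tested was higher and 2 were lower, of the endothelial genes 2 of 4 and 1, and of the endoderm genes 1 of 4 was lower. The calls of the endothelial genes and of the higher pluripotent gene were lost at an adjusted p below 0.01 and when either KO library was left out. In HEK293T cells no gene of these marker lists was called, where 0.489% of all genes tested were. These shifts accompany every NPC result that follows, and their part in those results was not tested. In bulk RNA, fewer cells of one type and less RNA per cell cannot be told apart.

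In NPCs 6 members were up-regulated and 11 down-regulated in KO cells, of 41 tested. A gene was called with edgeR's quasi-likelihood test at an adjusted p (Benjamini-Hochberg over all genes tested) below 0.05 and a fold change (FC) above 2. By the same rule 8.45% of all genes tested in NPCs were called up-regulated and 8.36% down-regulated, or 16.8% in either direction, against 41.5% of the members. At an unadjusted p below 0.05 there were 23 members (56.1%), against 40.3% of all genes. The members had a median log2 FC of -0.29 (-0.37 with genes at or under 3 counts in a group set to their bound) and all genes tested one of -0.02. The ligands WNT2B and WNT5A, the receptor FZD6, the R-spondin RSPO4 and the inhibitors DKK1 and DKK2 were higher in KO cells. The ligands WNT8B, WNT7B, WNT10B and WNT1, the receptors FZD3, FZD5 and FZD7, the R-spondins RSPO1, RSPO2 and RSPO3, and SFRP2 were lower. In HEK293T cells no member was called in either direction. In all 17 called members, and in 11 of the 24 not called, the WT and KO libraries of NPCs did not overlap. Both KO libraries were above for 10 of 41 members and below for 18, against 33.3 and 33.8% of all genes tested, so that this separation was as common among the members as the 67.1% of all genes.

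**Figure D1:**
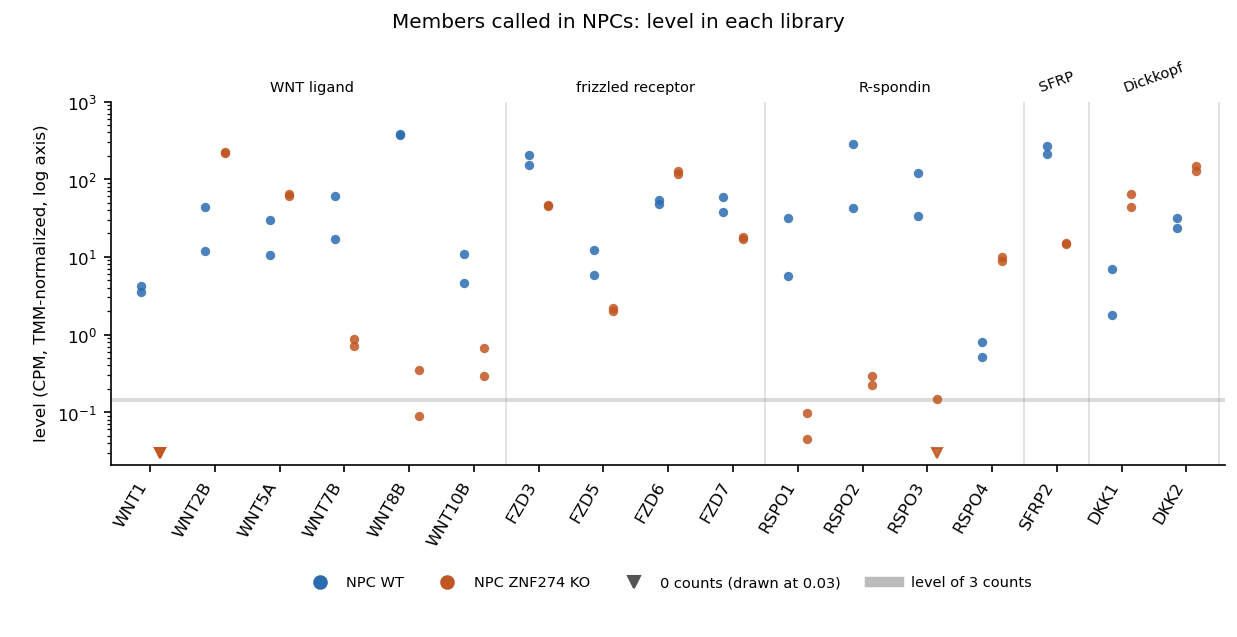
Level of the 17 members called in NPCs, in CPM normalized by TMM on a log axis, 1 point per library, with WT in blue and ZNF274 KO in orange, grouped by role. The grey band is the level of 3 counts, and triangles mark 0 counts. WNT8B, WNT1 and RSPO1, RSPO2 and RSPO3 drop to or near that band in KO cells, while the WT points of RSPO1, RSPO2 and RSPO3 lie far apart.

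The 5′ flanks of 3 of these genes are shown because WNT8B and SFRP2 had the smallest p-values among the members and DKK1 is a known target of beta-catenin. Each is the 250 bases before the RefSeq start site (GRCh38.p14, read 5′ to 3′ on the gene's strand). Capitals mark the letters CTTTGA or TCAAAG, a 6-base form of the core that TCF and LEF factors bind, read on either strand. Other forms of the core were not searched.
WNT8B, chr10:100462759-100463008, plus strand: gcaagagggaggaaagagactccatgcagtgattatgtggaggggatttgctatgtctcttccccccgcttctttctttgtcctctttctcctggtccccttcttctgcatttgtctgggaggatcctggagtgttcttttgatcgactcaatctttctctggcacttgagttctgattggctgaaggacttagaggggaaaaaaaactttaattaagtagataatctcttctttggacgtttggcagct
SFRP2, chr4:153789084-153789333, minus strand: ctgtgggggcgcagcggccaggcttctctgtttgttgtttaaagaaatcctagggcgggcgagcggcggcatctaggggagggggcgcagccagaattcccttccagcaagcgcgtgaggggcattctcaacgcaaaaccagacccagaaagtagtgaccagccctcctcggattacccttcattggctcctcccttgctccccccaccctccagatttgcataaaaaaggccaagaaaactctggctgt
DKK1, chr10:52314031-52314280, plus strand: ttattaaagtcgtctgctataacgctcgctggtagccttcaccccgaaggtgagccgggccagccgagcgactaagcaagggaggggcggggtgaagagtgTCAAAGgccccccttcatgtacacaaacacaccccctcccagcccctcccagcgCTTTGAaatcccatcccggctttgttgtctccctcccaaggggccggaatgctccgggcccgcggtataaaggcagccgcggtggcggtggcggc
The DKK1 flank holds these letters at 2 places, which begin 149 and 95 bases before the start site, and the flanks of WNT8B and SFRP2 do not hold them. RefSeq windows were matched for 30 of the 44 members, 3 of them with more than 1 start site, and DKK1 is the only 1 of the 30 with these letters. Over all genes 11.2% of 35116 windows of this length hold them. A match of letters is a description of the sequence and not a binding site.

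WNT8B, a ligand of the dorsal forebrain, was the most abundant WNT of WT NPCs. It had 7867 and 7346 counts (372.4 and 376.0 CPM) in the WT libraries, and 7 and 2 counts (0.346 and 0.0901 CPM) in the KO libraries. Both WT libraries were alike, and the lower KO library was under the level of 3 counts. WNT8B (chr10:102222766-102243501, hg19) fell by 10.74 ± 0.28 on the log2 scale (SE, adjusted p = 1.91e-05, edgeR's quasi-likelihood test). Without the KO library S2 the log2 FC was -10.07, and without S1 the ratio of WT counts to the 2 counts of S2 was 4154 (95% exact interval 1150 to 34310, counting error only).

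WNT7B, WNT10B and WNT1 also fell. WNT7B, a ligand of the forebrain and its vessels, had 356 and 1197 counts in WT and 18 and 16 in KO libraries, a log2 FC of -5.59 ± 0.68 (adjusted p = 0.0014). Without S3 the log2 FC was -6.25, and without S5 it was -4.39. WNT10B had 233 and 90 counts in WT and 6 and 15 in KO libraries, with a log2 FC of -3.98 ± 0.59 (adjusted p = 0.00303). Without the WT library S3 this was -3.21, and without the KO library S2 it was -4.71. WNT1, the ligand of the midbrain-hindbrain boundary and the dorsal midline, had 89 and 68 counts in WT and 0 in both KO libraries. Set against 3 counts per KO library, WNT1 was at least 27.2-fold lower (adjusted p = 0.000848). WNT10B and WNT1 are neighbours on chromosome 12 (chr12:49359123-49365518 on the minus strand and chr12:49372105-49376403 on the plus strand, hg19).

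WNT2B and WNT5A rose. WNT2B, a ligand that uses the canonical branch, had 250 and 849 counts in WT and 4494 and 4823 in KO libraries. Its WT libraries differed from each other by far more than its KO libraries did. The log2 FC was 2.99 ± 0.51 (adjusted p = 0.00539), with 2.34 when S3 was left out and 4.21 when S5 was. The exons of WNT2B (chr1:113009163-113072787, hg19) share 2665 bases with ST7L on the other strand. ST7L had a log2 FC of -0.14 ± 0.19 (adjusted p = 0.623). WNT5A, the main ligand of the branch without beta-catenin that steers cell movement and planar polarity, had 623 and 208 counts in WT and 1289 and 1336 in KO libraries. Its log2 FC of 1.62 ± 0.40 (adjusted p = 0.0233) was 2.54 without S3, and the adjusted p was 0.0959 without S1 and 0.0736 without S2.

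The make-up of the ligands changed with these genes. Levels were also taken per kilobase of exon, to set genes of unlike length on 1 scale. The length is that of all annotated exons of a gene merged, 2144 bases for WNT8B and 12374 for WNT2B. It is not that of the transcripts expressed, so shares and ranks per kilobase depend on this choice. Per kilobase, WNT8B gave 90.6 and 87.4% of the summed ligand level in WT NPC libraries and 0.516 and 0.139% in KO libraries. In KO libraries WNT2B gave 57.4 and 58.0% and WNT5A 28.5 and 27.8%. The sum itself was 191.8 and 200.6 CPM per kb in WT and 31.2 and 30.3 CPM per kb in KO libraries. Without scaling by length, under which the long WNT2B counts for more, it was 461.6 and 519.8 CPM in WT and 304.4 and 295.1 CPM in KO libraries. The 3 next ligands of WT NPCs were WNT7B, WNT10B and WNT5A at 7.69, 3.01 and 2.81 CPM per kb, whose libraries overlapped.

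**Figure D2:**
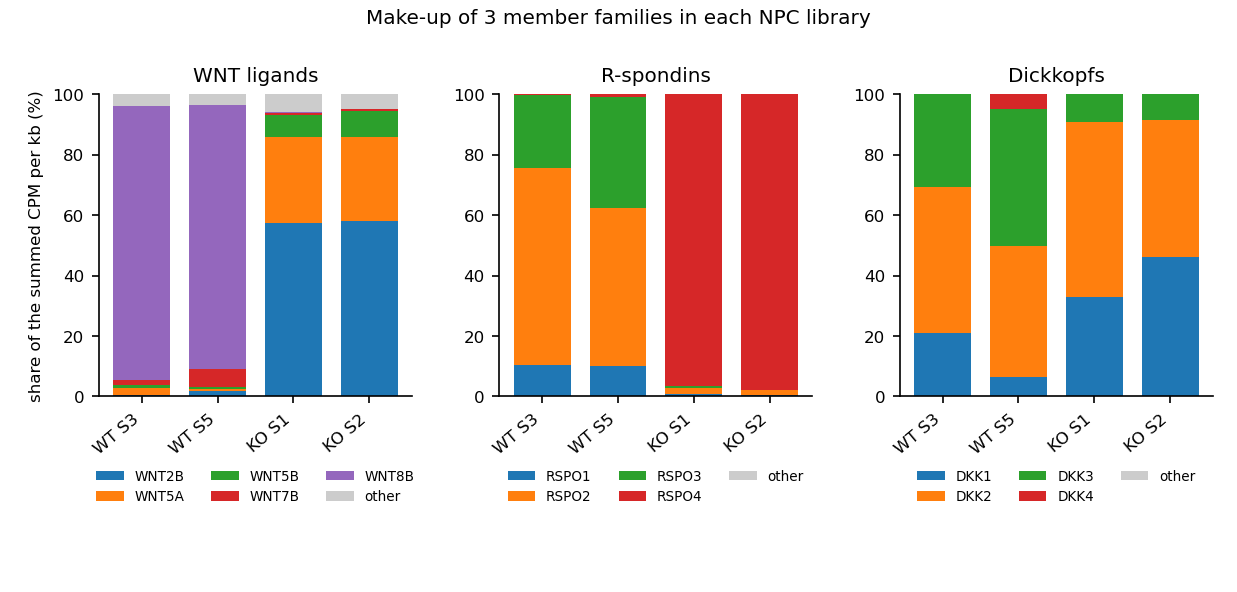
Share of each gene in the summed CPM per kb of its family, in per cent, for the 4 NPC libraries. Genes under 3% in every library are drawn as "other". WNT8B fills 90.6 and 87.4% of the WT ligand bars and WNT2B 57.4 and 58.0% of the KO ligand bars, RSPO4 fills 96.6 and 98.0% of the KO R-spondin bars, and the DKK3 share shrinks from 30.9 and 45.3% to 9.10 and 8.40%.

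The other 10 WNT ligands listed for NPCs were low and not called. WNT5B, the closest relative of WNT5A, stood at 9.56 and 5.12 CPM in WT and 9.53 and 11.3 CPM in KO libraries. WNT9A had 2.98 and 5.89 CPM in WT and 1.88 and 1.94 CPM in KO libraries (adjusted p = 0.068). WNT3, a posterior ligand, had 1.66 and 4.40 CPM against 2.17 and 1.08 CPM, and its groups overlapped. WNT3A, which marks the dorsal midline, had 11 and 58 counts in WT and 1 and 7 in KO libraries (adjusted p = 0.0628). The WNT3A groups did not overlap, and its WT libraries were far apart. Its test depended on the tool, with an adjusted p of 0.0302 in DESeq2. WNT4 had 0.331 and 0.921 CPM in WT and 2.91 and 1.22 CPM in KO libraries (adjusted p = 0.1). WNT2, WNT7A, WNT10A, WNT11 and WNT16 stayed under 1 CPM in both groups, with at most 17 counts in any library.

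Of the 10 frizzled receptors 3 fell, 1 rose and 6 were not called, where 8.36% of all genes tested were called lower and 8.45% higher. FZD3, a receptor of planar polarity and axon guidance, had 3192 and 3996 counts in WT and 934 and 1007 in KO libraries, a log2 FC of -1.96 ± 0.16 (adjusted p = 0.000298). FZD7 had 802 and 1165 counts in WT and 363 and 372 in KO libraries, with a log2 FC of -1.49 ± 0.23 (adjusted p = 0.00327). FZD5, a receptor of the eye field and forebrain, had 122 and 239 counts against 41 and 49, a log2 FC of -2.08 ± 0.41 (adjusted p = 0.00949). The FZD5 call was lost when either KO library was left out, with an adjusted p of 0.0727 without S1 and 0.0531 without S2. Without the WT library S5 its log2 FC was -1.45. FZD6, another planar polarity receptor, had 1145 and 943 counts in WT and 2353 and 2820 in KO libraries, a log2 FC of 1.25 ± 0.12 (adjusted p = 0.000536). FZD6 shares 138 exonic bases with BAALC-AS1 on the other strand, which had 3.27 ± 1.66 CPM in WT and 4.69 ± 2.03 CPM in KO NPCs (SD, n = 2) and was not called.

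Among the receptors not called were abundant ones. FZD2 had 62.9 and 55.7 CPM in WT and 54.9 and 69.95 CPM in KO libraries, and FZD1 had 42.3 and 35.4 CPM against 31.96 and 31.4 CPM. The FZD2 groups overlapped and the FZD1 groups did not. FZD4, the receptor of norrin as well as of WNTs, had 9.61 and 12.7 CPM in WT and 14.2 and 14.1 CPM in KO libraries. FZD4 shares 1399 exonic bases with PRSS23 on the other strand, a gene that rose by 2.15 ± 0.41 on the log2 scale (adjusted p = 0.00859). FZD8 and FZD9 stayed between 1.28 and 4.20 CPM in every NPC library, and FZD10 between 0.36 and 1.28 CPM. Per kilobase, FZD2 (15.7 CPM per kb), FZD3 (12.9), FZD6 (12.6) and FZD7 (10.6) led the receptors of WT NPCs. The FZD2 libraries overlapped those of FZD3 and lay above those of FZD6 and FZD7, while FZD3, FZD6 and FZD7 overlapped one another. In KO NPCs FZD6 led with 29.9 CPM per kb, ahead of FZD2 with 16.5 CPM per kb.

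The co-receptors LRP5 and LRP6 were not called. LRP5 had 28.3 and 25.6 CPM in WT and 24.4 and 25.2 CPM in KO libraries. LRP6 had 58.65 and 66.85 CPM in WT and 77.5 and 61.6 CPM in KO libraries, with overlapping groups. The fitted log2 FC was -0.12 ± 0.15 for LRP5 and 0.15 ± 0.15 for LRP6.

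All 4 R-spondins were called, 3 lower and 1 higher, against 8.36 and 8.45% of all genes tested. RSPO2 had 5979 and 820 counts in WT and 6 and 5 in KO libraries, a log2 FC of -9.26 ± 1.20 (adjusted p = 0.00178). RSPO3 had 2537 and 653 counts against 3 and 0, and the ratio of WT to KO counts was 1110 (95% exact interval 379.5 to 5385, counting error only). RSPO1 had 670 and 111 counts against 2 and 1, a ratio of 271.8 (92.65 to 1321). The adjusted p was 0.000654 for RSPO3 and 0.0026 for RSPO1.

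The WT libraries were far apart for these 3 genes, with S3 above S5 in each. For RSPO2 the log2 FC was -7.31 without S3 and -10.07 without S5. The count ratio of RSPO3 was 473.1 (161.2 to 2300) without S3 and 1699 (580.8 to 8245) without S5, and that of RSPO1 was 80.4 (26.8 to 395.9) and 448.7 (152.9 to 2181). Without the KO library S2 the ratio was 529.4 (181 to 2569) for RSPO3 and 194.4 (53.6 to 1608) for RSPO1. Without S1 it was 426.6 (76.3 to 16870) for RSPO1, and RSPO3, with 0 counts in S2, was at least 568.2-fold lower than in WT against 3 counts in that library. Both genes were still called without either KO library (adjusted p up to 0.00508 for RSPO3 and 0.0206 for RSPO1). With voom, the weighted limma test, all 3 calls were lost, at an adjusted p of 0.162 for RSPO2, 0.122 for RSPO3 and 0.136 for RSPO1. RSPO4 went the other way, with 17 and 10 counts in WT and 204 and 198 in KO libraries, a log2 FC of 3.83 ± 0.35 (adjusted p = 0.000438). The summed R-spondin level was 99.9 and 18.4 CPM per kb in WT and 3.79 and 3.30 CPM per kb in KO libraries, where RSPO4 gave 96.6 and 98.0% of it.

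Among the secreted WNT binders SFRP2 fell. SFRP2, a secreted frizzled-related protein of neural progenitors, had 4489 and 5280 counts in WT and 304 and 324 in KO libraries, a log2 FC of -4.03 ± 0.16 (adjusted p = 2.42e-05). SFRP2 (chr4:154701743-154710235, hg19) was the most abundant binder of WT NPCs per kilobase, with 106.5 and 135.4 CPM per kb, and stood at 7.52 and 7.31 CPM per kb in KO libraries. SFRP1 had 45.96 and 50.01 CPM in WT and 89.65 and 48.7 CPM in KO libraries, and FRZB had 28.35 and 17.97 CPM against 58.0 and 28.1 CPM. Neither was called (adjusted p = 0.178 and 0.106). For both genes the WT and KO libraries overlapped, and S1 was the highest. The log2 FC of FRZB was 0.89, with 1.26 when S3 was left out and 1.31 when S2 was. SFRP4 and WIF1 had at most 6 counts in any NPC library.

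DKK1 and DKK2 rose, and DKK3 and DKK4 were not called. DKK1, the best known inhibitor of LRP5 and LRP6, had 149 and 35 counts in WT and 876 and 1445 in KO libraries, a log2 FC of 3.60 ± 0.54 (adjusted p = 0.0031). The WT libraries differed from each other, and the log2 FC was 4.92 without S3 and 2.94 without S5. DKK1 (chr10:54074041-54077802, hg19) shares 227 exonic bases with PRKG1-AS1 on the other strand, which had 0.385 ± 0.327 CPM in WT and 0.454 ± 0.196 CPM in KO cells (SD, n = 2). DKK2 had 673 and 464 counts in WT and 2999 and 2792 in KO libraries, a log2 FC of 2.30 ± 0.17 (adjusted p = 0.000221). DKK3, a distant relative that does not act on LRP6 in the same way, had 56.1 and 68.3 CPM in WT and 64.2 and 63.96 CPM in KO libraries. DKK3 shares 5681 exonic bases with USP47 on the other strand. DKK4 had 11 counts in S5 and 0 in the other 3 libraries. The summed Dickkopf level was 15.2 and 12.6 CPM per kb in WT and 59.0 and 63.7 CPM per kb in KO libraries.

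In HEK293T cells no member was called, and at an unadjusted p below 0.05 there were 3 of 34 tested members (8.82%) against 7.12% of all genes tested. The rule called 0.478% of all genes up-regulated and 0.0105% down-regulated there, 0.489% in all. No member was called by DESeq2 or voom either. The members' median log2 FC was 0.17, or 0.01 with the genes at or under 3 counts in a group set to their bound, and that of all genes 0.01. Without S18 the members' median was -0.02 and without S19 it was 0.41, so that its sign rests on 1 library. S18 stood apart from the other KO libraries, with a chi-square per gene of 81.9 and 72.0 against S19 and S20, which had 26.3 between them. The 3 members with p below 0.05 were ligands. WNT7B had 26, 17 and 12 counts in WT and 102, 20 and 28 in KO libraries, a log2 FC of 1.69 ± 0.67 (adjusted p = 0.639), and 1 KO library, S18, stood far above the rest. WNT3 had 117, 57 and 79 counts against 139, 118 and 125, a log2 FC of 0.75 ± 0.32 (adjusted p = 0.676). WNT9A had 25, 3 and 16 counts against 48, 34 and 23, a log2 FC of 1.41 ± 0.62 (adjusted p = 0.684). The KO libraries were all above the WT libraries for WNT9A and WNT5A, 2 of 34 members, against 7.16% of all genes, and all below for none, against 5.27%.

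The abundant members of HEK293T cells were receptors and co-receptors. LRP5 had 64.4, 50.55 and 53.8 CPM in WT and 33.3, 47.99 and 52.6 CPM in KO libraries. LRP6 had 34.7, 39.1 and 34.7 CPM against 34.85, 38.1 and 38.7 CPM. FZD7 had 30.2, 30.6 and 34.5 CPM in WT and 23.5, 27.1 and 32.6 CPM in KO libraries. In all 3 genes the groups overlapped.

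FZD5 had 28.1, 29.8 and 27.5 CPM in WT HEK293T libraries and 15.8, 29.8 and 24.4 CPM in KO libraries, with S18 the lowest. FZD3 had 21.97, 22.95 and 22.05 CPM against 20.9, 23.5 and 23.3 CPM. FZD6 had 10.85, 12.04 and 10.98 CPM against 22.97, 11.7 and 12.9 CPM, with S18 the highest. All of these overlapped between the groups. FZD1 ranged from 10.03 to 15.5 CPM and FZD8 from 9.19 to 17.8 CPM over the 6 libraries, again with overlap.

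Among the ligands of HEK293T cells WNT5A and WNT10B were the most abundant. WNT5A had 14.5, 18.7 and 13.9 CPM in WT and 18.8, 19.3 and 20.7 CPM in KO libraries (adjusted p = 0.766). WNT10B had 9.15, 10.4 and 10.8 CPM against 7.29, 9.43 and 9.98 CPM. Of the 41 members listed, 19 were under 1 CPM in both groups. They include all 4 R-spondins, DKK1, DKK2, SFRP2, FRZB, WIF1 and WNT8B, of which all but WIF1 reached 1 CPM in a group of NPCs. The 7 members left out of the test (DKK4, FRZB, RSPO1, SFRP2, WIF1, WNT9B and WNT10A) had at most 4 counts in any library of either group. A fall in KO cells could not have been detected for them at this depth.

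**Figure D3:**
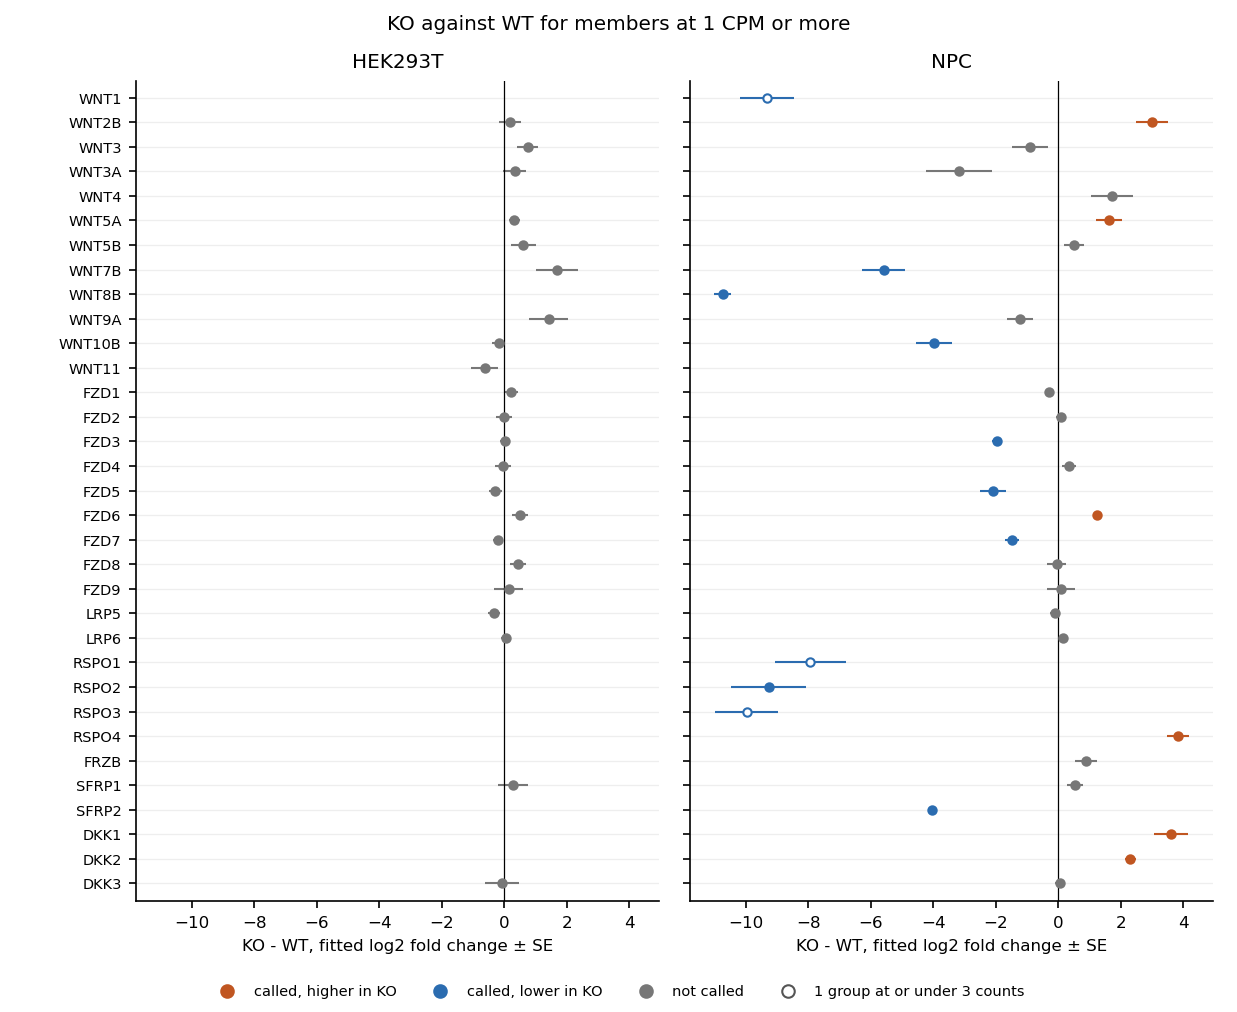
Fitted log2 fold change of KO against WT with its SE for members at 1 CPM or more in a group, HEK293T cells (n = 3 libraries per group) on the left and NPCs (n = 2 per group) on the right, on 1 scale. Orange and blue mark genes called higher and lower in KO cells, grey genes that were not called, and open circles genes with 1 group at or under 3 counts, whose fitted value is no bound. No HEK293T point is coloured, and the NPC points run from -10.74 for WNT8B to 3.83 for RSPO4.

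Whether ZNF274 loss acted differently in the 2 cell types was tested directly, by an interaction term over all 10 libraries. Of 37 members tested, 12 differed, 3 with a higher and 9 with a lower KO effect in NPCs than in HEK293T cells, against 12.2% of all genes tested (6.01% higher and 6.22% lower). The count was 7 without the KO library S2 of NPCs and 6 at an adjusted p below 0.01. Of the 37, DKK4, FRZB, RSPO1, SFRP2 and WIF1 were too low for a test of their own in HEK293T cells. Their rows carry no measured HEK293T effect, and all 12 calls fall among the other 32. Among the called members, RSPO2 and RSPO3 had at most 5 counts in any HEK293T library. A fall like that in NPCs could not have been seen there, so that their calls rest on the NPC fall. Of the 12, 11 are members called in NPCs, with the same direction, and the other is WNT3A, whose call was lost in 8 of the 10 fits that left out a library. WNT8B (-10.63 ± 0.78, adjusted p = 8.4e-06), FZD3 (-1.95 ± 0.22, adjusted p = 0.000134) and WNT10B (-3.78 ± 0.58, adjusted p = 0.00114) had the smallest p-values. FZD3 was expressed in both cell types. It stood at 22.3 ± 0.55 and 22.6 ± 1.45 CPM in WT and KO HEK293T cells (SD, n = 3) and at 177.8 ± 37.8 and 45.75 ± 0.55 CPM in WT and KO NPCs (SD, n = 2). For DKK2, FZD6 and WNT5A, called in NPCs alone, the difference between the cell types was not called (adjusted p = 0.0889, 0.146 and 0.0648). For SFRP2 and RSPO1, with at most 1 count per HEK293T library, and for WNT1, not listed there, the effects could not be compared. The NPC and HEK293T libraries differ in cell type, culture and table together, and these cannot be told apart.

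The rest of the pathway was described by 5 lists of 76 further genes. In NPCs 10 were up-regulated and 18 down-regulated of 73 tested, against 8.45 and 8.36% of all genes tested, with a median log2 FC of -0.28. In HEK293T cells none of 72 tested were called by edgeR, DESeq2 or voom, where edgeR called 0.489% of all genes tested. At an unadjusted p below 0.05 there were 4, against 7.12% of all genes tested. None of the 3 genes of WNT secretion was called in NPCs.

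Of 17 tested targets of beta-catenin 9 fell and 3 rose in NPCs, against 8.36 and 8.45% of all genes tested. The 3 that rose were DKK1, described above among the inhibitors, CCND1 and MYC, and without DKK1, which the counts of the 5 lists leave out, 2 of 16 rose. At an adjusted p below 0.01, 4 of the 9 were still called (LEF1, LGR5, SP5 and TNFRSF19). Of the 9, 7 were called without S3, 5 without S1 and 4 without S2. AXIN2, LEF1, TCF7, NKD1, NKD2, SP5, LGR5, BAMBI and TNFRSF19 were lower. The log2 FC of AXIN2 was -1.37, with -0.70 without S3, an FC under 2, and -1.83 without S5. BAMBI, a decoy receptor of TGF-beta signalling, stood at 79.1 ± 62.3 CPM in WT and 17.5 ± 1.88 CPM in KO NPCs (SD, n = 2, log2 FC -2.17 ± 0.51, adjusted p = 0.0195). Its WT libraries were far apart, with a log2 FC of -0.998 without S3 and -2.82 without S5, and the call was lost without S3, S1 or S2. TNFRSF19, a surface receptor, stood at 34.7 ± 5.33 and 13.98 ± 2.51 CPM (log2 FC -1.31 ± 0.20, adjusted p = 0.00321). CCND1 and MYC drive the cell cycle and growth in many contexts besides WNT. CCND1, which encodes cyclin D1, rose from 246.2 ± 7.27 to 524.9 ± 11.9 CPM (log2 FC 1.09 ± 0.10, adjusted p = 0.000424). MYC rose from 27.5 ± 6.60 to 86.3 ± 2.38 CPM (log2 FC 1.65 ± 0.18, adjusted p = 0.000834).

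Inside the cell 5 of 29 tested genes of the beta-catenin pathway fell and none rose, against 8.36 and 8.45% of all genes tested. They were LEF1 and TCF7, the nuclear partners of beta-catenin, its inhibitor CTNNBIP1, the co-activator PYGO2 and APC2 of the destruction complex. LEF1 stood at 27.3 ± 5.26 CPM in WT and 4.67 ± 0.87 CPM in KO NPCs (log2 FC -2.55 ± 0.24, adjusted p = 0.000481). CTNNBIP1 stood at 175.8 ± 0.914 and 65.6 ± 5.42 CPM (log2 FC -1.42 ± 0.11, adjusted p = 0.000266).

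Co-receptors and planar polarity genes went both ways, with 4 of 14 higher and 3 lower, against 8.45 and 8.36% of all genes tested. ROR2, the WNT5A receptor, the dishevelled partner DAAM2 and PRICKLE1 and PRICKLE2 were higher. DAAM2 rose from 12.5 ± 0.25 to 94.5 ± 10.4 CPM (log2 FC 2.92 ± 0.14, adjusted p = 4.3e-05), and PRICKLE2 from 10.85 ± 2.32 to 57.98 ± 7.88 CPM (log2 FC 2.42 ± 0.20, adjusted p = 0.000298). CELSR2, CELSR3 and VANGL2, membrane proteins of planar polarity, were lower. Their relatives CELSR1 (25.98 ± 12.7 and 17.4 ± 6.99 CPM in WT and KO NPCs) and VANGL1 (29.5 ± 0.388 and 34.9 ± 2.42 CPM) were not called (adjusted p = 0.312 and 0.236). CELSR2 fell from 119.1 ± 45.3 to 12.7 ± 0.93 CPM (log2 FC -3.23 ± 0.27, adjusted p = 0.000303).

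Among 19 other surface and secreted regulators 4 rose and 5 fell, against the same shares of all genes. LGR4, an R-spondin receptor, rose from 29.9 ± 7.71 to 83.6 ± 0.42 CPM (log2 FC 1.48 ± 0.18, adjusted p = 0.00144). LGR6 and LGR5, receptors of the same family, were higher and lower respectively, both under 2 CPM, and LGR6 was not called without S1 or S2. The glypican GPC3 fell from 100.6 ± 57.7 to 8.08 ± 3.59 CPM (log2 FC -3.64 ± 0.47, adjusted p = 0.00171, with -2.89 without S3), and the secreted IGFBP4, known to inhibit canonical WNT signalling, rose from 30.7 ± 7.49 to 119.0 ± 8.72 CPM (log2 FC 1.96 ± 0.18, adjusted p = 0.000448).

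**Figure D4:**
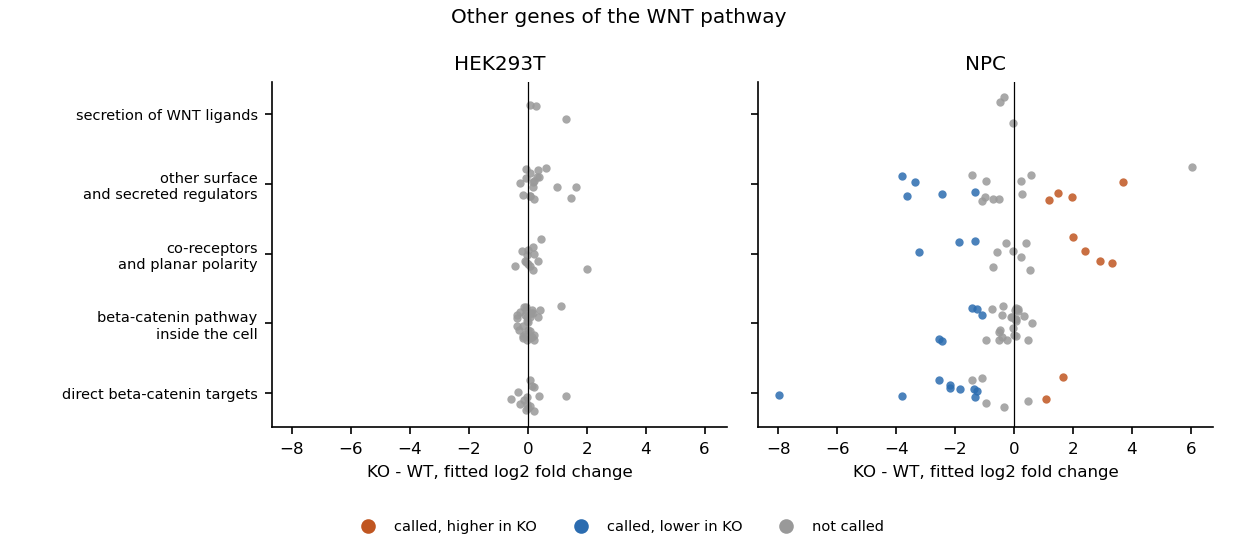
Fitted log2 fold change of KO against WT for the tested genes of the 5 lists of other WNT pathway genes, 1 point per gene, on 1 scale for both cell types. Orange and blue mark genes called higher and lower in KO cells and grey genes that were not called. In NPCs 9 of 16 targets of beta-catenin (DKK1 not drawn) lie among the blue points, and in HEK293T cells no point is coloured.

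Genes that pattern the neural tube under WNT control were also counted, of which 3 of 16 tested rose and 5 fell in NPCs, against 8.45 and 8.36% of all genes tested, and dorsal factors went both ways. At an adjusted p below 0.01, 2 were called higher and 4 lower. Without S1, 2 of the 3 and 3 of the 5 were still called. PAX3, a dorsal and neural crest factor, rose from 0.455 ± 0.443 to 47.6 ± 5.66 CPM (log2 FC 6.72 ± 0.46, adjusted p = 0.000149, with 5.94 without S3 and 8.32 without S5). MSX2, a dorsal factor, rose from 9.53 ± 8.34 to 44.4 ± 12.5 CPM (log2 FC 2.21 ± 0.57, adjusted p = 0.0261). The log2 FC of MSX2 was 3.61 without S3 and 1.51 without S5, and the call was lost without S1 or S2 (adjusted p = 0.13 and 0.0503). LMX1A, a roof plate factor, fell from 42.55 ± 42.5 to 1.79 ± 0.75 CPM (log2 FC -4.58 ± 0.84, adjusted p = 0.00708, with -2.81 without S3 and -5.36 without S5), and LMX1B, its relative, rose from 0.5 ± 0.306 to 12.3 ± 1.34 CPM (log2 FC 4.62 ± 0.42, adjusted p = 0.000438, with 5.40 without S5). SIX3, a factor of the anterior forebrain and eye field, stood at 24.1 ± 1.22 CPM in WT NPCs and at 0 counts in both KO libraries (adjusted p = 6.33e-05), and its relative SIX6 was also lower, from under 1 CPM to 0 counts, a call lost without S1 or S2 (adjusted p = 0.144 and 0.142). OTX2, a factor of the forebrain and midbrain, fell from 63.4 ± 18.03 to 21.4 ± 6.43 CPM (log2 FC -1.56 ± 0.26, adjusted p = 0.00505), and PAX6 from 83.2 ± 6.67 to 33.7 ± 11.5 CPM (log2 FC -1.30 ± 0.22, adjusted p = 0.00556), a call lost without S1 as the FC was then under 2. In HEK293T cells none of 13 tested genes of this list was called, where 0.489% of all genes tested were. At an unadjusted p below 0.05 there was 1, against 7.12% of all genes tested.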

How the data were processed

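RNA-seq counts of 10 libraries were analysed, 3 WT and 3 ZNF274 KO libraries of HEK293T cells and 2 and 2 of NPCs, grouped by their labels. The authors aligned the reads with HISAT2 to hg19 and, with featureCounts, deposited raw counts of uniquely mapped reads per gene, 1 table per cell type. Versions and the strand setting of the counting are not given in the sources used here, so overlapping genes on opposite strands may share reads. Symbols came from GENCODE lifted to hg19 (23273 of 24050 identifiers found). No column of other samples was left out (0).

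The quasi-likelihood test of edgeR 4.0.16 (R 4.3.3, TMM, Benjamini-Hochberg) was run per cell type on genes with 1 count or more per library on average, 19018 in HEK293T cells and 20577 in NPCs. The interaction used 19255 genes listed in both tables. SE is the log2 FC over the square root of the F statistic. CPM is TMM-normalized within a cell type, and CPM per kb divides it by the merged length of all annotated exons of a gene. Libraries held 18621266 to 32285876 counts. The floor was 3 counts per library, and floors and intervals cover counting error only. Replicates differed by more than sampling noise. The design text calls them biological replicates, but no label ties a library to a clone or culture, so p-values measure the spread between libraries. The test was tried on simulated data.

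Members and lists were chosen with earlier results of these data known. Named are ZNF274, members called or at 10 CPM or more, the 3 members with the smallest HEK293T p, of each other list up to 4 called genes of the largest mean at 5 CPM or more, and overlapping genes. Genes named beyond this rule were chosen after their values were seen. Alternatives were DESeq2 1.42.0, voom (limma 3.58.1), DESeq2 size factors, library size alone, other filters and thresholds, all 10 libraries in one fit, and each library left out. Where 1 library of a group remains, it is assumed to vary like the other group. In NPCs the chi-square per gene was 31.3 between the WT libraries and 10.5 between the KO libraries. Calls and adjusted p values without a WT library therefore rest on the tighter KO pair and are no measure of the WT spread.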

Additional observations from a re-analysis of the deposited data

Results flagged for a closer look

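The KO effect of 12 of 37 members tested differed between NPCs and HEK293T cells by the interaction test of edgeR (log2 FC in NPCs minus log2 FC in HEK293T cells). Among all genes tested the share was 12.2%. The effect was more negative in NPCs for WNT8B (-10.63, adjusted p = 8.4e-06), RSPO2 (-10.27, adjusted p = 0.0178), RSPO3 (-9.31, adjusted p = 0.0311), WNT7B (-7.25, adjusted p = 0.00128), WNT10B (-3.78, adjusted p = 0.00114), WNT3A (-3.49, adjusted p = 0.0463), FZD3 (-1.95, adjusted p = 0.000134), FZD5 (-1.78, adjusted p = 0.0211) and FZD7 (-1.28, adjusted p = 0.0121). It was more positive for RSPO4 (4.36, adjusted p = 0.00201), DKK1 (3.30, adjusted p = 0.0167) and WNT2B (2.83, adjusted p = 0.00916). With voom the differences of RSPO2, FZD5 and WNT3A were not called (adjusted p = 0.0926, 0.0767 and 0.103). With each library left out in turn, the calls of WNT8B, FZD3, WNT10B, WNT7B, RSPO4 and WNT2B held. DKK1 was lost without the KO library S2 of NPCs (adjusted p = 0.07), and FZD7 without S5 (0.0536) or S2 (0.0604). RSPO2 and RSPO3 had at most 5 counts in any HEK293T library, and RSPO3 had 3 and 0 counts in the KO libraries of NPCs, so that their values come from the fit and are no measure of size or bound. RSPO2 was lost without S18 (0.0609) or S19 (0.141), and RSPO3 without S16 (0.0574), S18 (0.0732), S19 (0.302) or S2 (0.0599). FZD5 was lost without S17 (0.0506), S5 (0.0973), S1 (0.093) or S2 (0.0727). WNT3A held only without S19 or S3, with adjusted p values up to 0.312 without one of the other libraries.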

How the results depend on the processing

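The counts of members called up- or down-regulated in each cell type, and those of the other pathway genes, stayed within 1.5 times of the values given under every alternative run. The number of members whose KO effect differed between the cell types was 6 at an adjusted p below 0.01 and ran from 7 to 14 with 1 library left out, 7 without the KO library S2 of NPCs. The stricter threshold is itself the reason for the first, and the cause of the second was not tested. With voom the NPC calls of RSPO1, RSPO2 and RSPO3 were lost, as were the cell type differences of RSPO2, FZD5 and WNT3A. The NPC call of WNT5A was lost at an adjusted p below 0.01, and WNT1 could not be tested with all 10 libraries in one fit. Normalization by library size alone moved the median log2 FC of all genes in NPCs from -0.02 to -0.13, and that of the members from -0.29 to -0.40. Over the named genes 413 values kept their direction and call, 31 kept the direction but lost the call, 6 gained one and none reversed. No paired analysis was possible because the WT and KO libraries share no replicate number. Counts under about 3 per library limit RSPO1, RSPO3 and WNT1 in KO NPCs to ratios or bounds.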
